A study of Homo sapiens with 14 samples.

Results

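The regions described here are the open-chromatin summits that an ATAC-seq library of radioresistant U251MG cells shared with one of control U251MG cells. They were chosen by position and by having been called at all in both lists: a summit of the radioresistant list was kept when any summit of the control list lay within 250 bp on the same chromosome. The rule kept 1476 of 12877 radioresistant summits (11.5%), and 1476 of 2454 control summits (60.1%) had a radioresistant summit as near. The other 11401 radioresistant summits and 978 control summits are called radioresistant-only and control-only. U251MG is an established human glioblastoma line. The radioresistant cells had received 30 daily X-ray fractions of 2 Gy, 60 Gy in all, and the controls are labelled only as control. Each condition had 1 ATAC-seq library. RNA-seq was done on 4 groups of 3 libraries: control cells, radioresistant cells, and radioresistant cells carrying the hairpin shNC or the hairpin shIFI16 against IFI16. The labels give every group the genotype WT, and do not say whether the radioresistant line is 1 clone or whether replicates came from separate cultures. The groups of the RNA columns were inferred from their codes. A p-value here reflects only how these libraries varied, which may be technical.

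In ATAC-seq the transposase Tn5 inserts sequencing adapters where DNA is free of nucleosomes, so reads pile up at active promoters, enhancers, insulators and repeated genes in open chromatin. The summit is the base of highest pile-up within a called peak. Promoters of housekeeping genes are typically GC-rich and carry sites for general factors such as SP1 and NF-Y. Transfer RNA genes and some other short RNA genes are transcribed by RNA polymerase III, and ribosomal RNA genes by RNA polymerase I. Both kinds are present in many near-identical copies.

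Shared promoter summits are shown first as sequence, because their base composition and short motifs were not used to choose them. Each sequence is the one with the highest radioresistant score for its motif among 148 shared summits that lay upstream of a start site, outside chromosome 8 and in no annotated gene. The sequences are from RefSeq (GRCh38.p14), written 5′ to 3′ on the strand of the gene and centred on the summit where the available sequence and the start site allowed. Capitals mark the motif, on either strand.

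EIF2B3, a subunit of the translation factor eIF2B, held the NRF1 motif at chr1:44986596-44986697, minus strand:

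EIF2B3: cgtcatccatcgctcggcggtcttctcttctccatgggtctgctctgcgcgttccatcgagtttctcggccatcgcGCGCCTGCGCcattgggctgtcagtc

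PEX39, a peroxisomal import gene, held the ETS motif at chr6:42890822-42890918, minus strand:

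PEX39: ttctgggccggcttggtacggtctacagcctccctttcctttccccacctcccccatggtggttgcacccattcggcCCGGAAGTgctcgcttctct

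TMEM60, a transmembrane protein gene, held the SP1 motif at chr7:77798435-77798540, minus strand:

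TMEM60: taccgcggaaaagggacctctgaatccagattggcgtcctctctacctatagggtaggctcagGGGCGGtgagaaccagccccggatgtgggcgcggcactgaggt

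ADGRV1, a very large adhesion receptor, held the NF-Y motif in its reverse complement at chr5:90558682-90558796, plus strand:

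ADGRV1: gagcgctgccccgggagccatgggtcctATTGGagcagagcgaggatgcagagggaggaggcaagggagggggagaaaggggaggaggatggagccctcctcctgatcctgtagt

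LOC107985362, a non-coding RNA gene, held the AP-1 motif at chr1:233707555-233707675, minus strand:

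LOC107985362: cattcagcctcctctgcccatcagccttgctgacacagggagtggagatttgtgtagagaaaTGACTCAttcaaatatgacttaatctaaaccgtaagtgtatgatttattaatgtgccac

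CGRRF1, a RING finger gene, held the CTCF core at chr14:54509722-54509842, plus strand:

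CGRRF1: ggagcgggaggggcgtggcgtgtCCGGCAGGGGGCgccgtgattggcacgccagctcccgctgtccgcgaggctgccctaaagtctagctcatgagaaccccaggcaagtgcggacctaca

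RMND1, needed for mitochondrial translation, held the E-box at both of its matches at chr6:151452133-151452253, minus strand:

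RMND1: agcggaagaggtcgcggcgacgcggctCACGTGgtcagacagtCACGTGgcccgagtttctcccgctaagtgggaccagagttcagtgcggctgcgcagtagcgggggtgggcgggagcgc

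METTL3, the catalytic subunit of the mRNA m6A methyltransferase, held the TATA motif in its reverse complement at chr14:21511341-21511433, minus strand:

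METTL3: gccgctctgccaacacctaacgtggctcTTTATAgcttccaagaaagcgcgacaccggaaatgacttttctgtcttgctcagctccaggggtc

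UBFD1, a ubiquitin-domain gene, held the interferon-response motif (ISRE) in its reverse complement at chr16:23557544-23557664, plus strand:

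UBFD1: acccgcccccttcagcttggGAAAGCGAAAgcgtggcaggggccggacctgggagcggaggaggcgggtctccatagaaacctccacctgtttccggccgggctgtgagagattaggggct

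Of these 9 sequences, 8 had a GC content from 53.8% in METTL3 to 68.6% in CGRRF1 and RMND1, and LOC107985362 stood at 41.3% GC. The ADGRV1 summit had the highest radioresistant score among them, 18.4 against 5.44 in the control library, where a score is the authors' −log10 q-value at the summit. LOC107985362 had the lowest, 3.53 and 2.98. All 9 had a higher score in the radioresistant library, but they were picked by that score. The same direction was seen at 1211 of the 1476 shared summits. The PEX39 and LOC107985362 summits were 1 bp from their control partners, and the METTL3 summits were 203 bp apart.

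Shared summits were mostly close matches. The median distance to the control partner was 71 bp, with quartiles of 26 and 143 bp. In 17 cases both lists gave the same base, 600 pairs lay within 50 bp and 886 within 100 bp. Among the pairs at the same base, the one with the highest radioresistant score lay between genes at chr17 22521456, with scores of 22.01 and 18.1. The next was in TNS3, a focal adhesion protein, at chr7 47475336, with 13.3 and 8.11. Same-base pairs also stood at −67 bp from the start of SF3B6, a splicing factor subunit, and at −453 bp from that of GABARAPL1, an autophagy protein, where a minus marks upstream positions.

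Few summits lay at the limit of 250 bp, with 25 in the last 10 bp inside it and 31 in the first 10 bp outside. Just inside were a summit at chr1 143254803 (250 bp), one at −58 bp from the start of LINC01615, a non-coding RNA (249 bp), and one in ASPSCR1, a regulator of glucose transporter traffic (249 bp). Just outside, at 1 bp past the limit, were summits in VDAC1, the mitochondrial outer membrane channel, in DRC10, and near the start of COPS8-DT. Widening the limit to 1000 bp gave 1876 summits.

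Scores are described without a test, because a summit had to be called in both libraries to be kept. Shared summits had a median score of 6.29 in the radioresistant library (quartiles 4.34 and 9.44, highest 71.9). The same places had a median of 3.76 in the control library (quartiles 2.92 and 5.05, highest 65.7). The score was higher in the radioresistant library at 1211 shared summits and higher in the control library at 265. Across the 1476 pairs the scores had a Spearman correlation of 0.387. The 2 libraries differ in how many peaks were called, their read depth is not given in the sources used here, and a −log10 q-value grows with depth, so the size of a score cannot be read as a difference in openness.

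**Figure D1:**
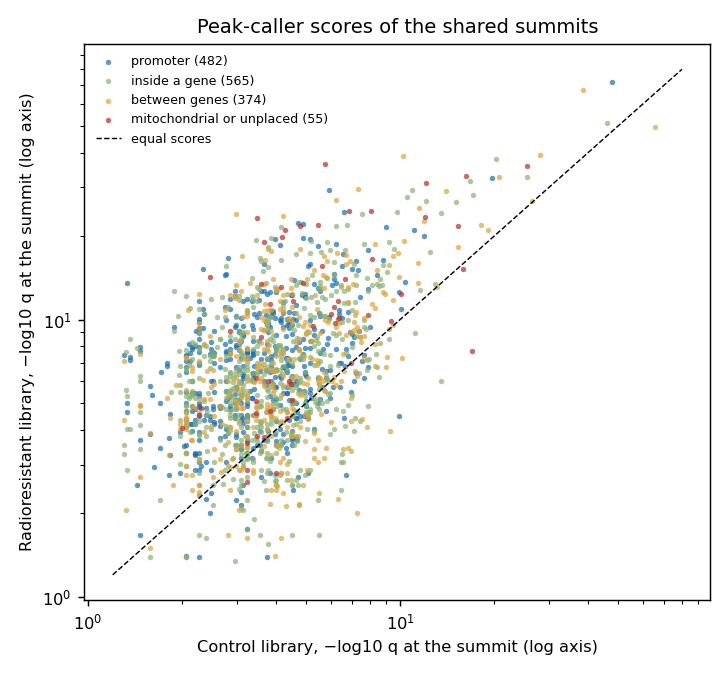
Peak-caller score (−log10 q) of the 1476 shared summits in the control library (x, log axis) and the radioresistant library (y, log axis), 1 point per summit, coloured by location; the dashed line marks equal scores. Of the points, 1211 lie above the line and 265 below, and 37 summits stand in the top 100 of both libraries. Some high radioresistant scores go with low control scores, such as 36.3 against 5.77 on GL000220v1.

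The share of summits that were shared rose with the score in both libraries. In the radioresistant list it was 3.93% for scores under 3, 17.3% for 5 to 10, 46.1% for 10 to 20 and 78.5% from 20 (51 of 65; exact 95% interval 66.5 to 87.7%). In the control list it went from 51.3% under 3 to 83.3% from 20, where only 12 summits lay. All 10 of the highest radioresistant scores and 8 of the highest 10 control scores belonged to shared summits. Among the 100 highest of each list, 75 radioresistant and 85 control summits were shared, and 37 shared summits stood in the top 100 of both. Intervals here and below cover counting error only.

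**Figure D2:**
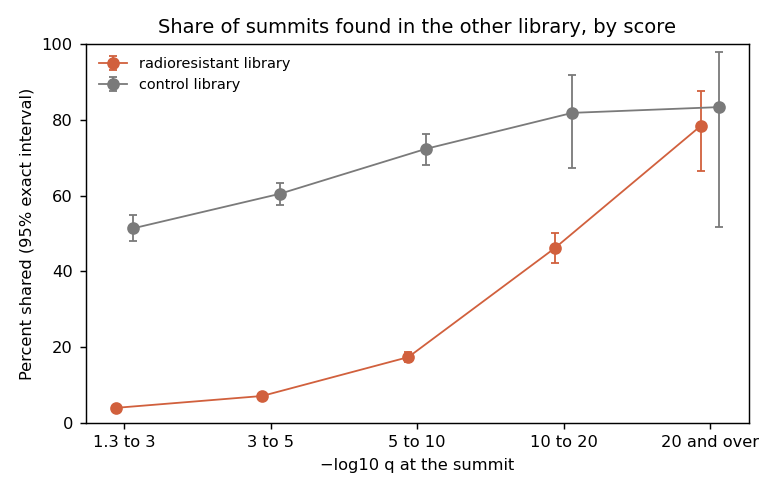
Percent of summits that had a partner in the other library (y, with exact 95% interval) by the −log10 q at the summit (x), for the radioresistant and the control list. In the radioresistant list the share goes from 3.93% to 78.5%, and in the control list from 51.3% to 83.3%.

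Of the 10 shared summits with the highest radioresistant score, 1 counted as a promoter summit. The first was at chr1 629893, scores 71.9 and 47.6, in MTND2P28, a nuclear pseudogene copy of a mitochondrial gene. It was counted as a promoter summit because it stood at −884 bp from the start of LOC101928626, a non-coding RNA gene. MTATP6P1 at chr1 634125 had 51.0 and 45.9, and MTCO1P12 at chr1 631999 had 31.5 and 16.7. These are copies of mitochondrial genes in the same nuclear stretch, and all 3 summits in such copies were shared. On the mitochondrial chromosome itself 3 of 8 radioresistant summits were shared, in the ribosomal RNA genes RNR1 and RNR2, with RNR1 at 15.2 and 15.95. How reads that fit both a nuclear copy and the mitochondrial genome were placed is not given in the sources used here, and its part in these scores was not tested.

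Several other summits at the top lay away from gene starts, most of them between genes. At chr13 109424243 the scores were 67.1 and 38.6, and the nearest start was 23547 bp away. At chr3 93470612 the radioresistant score was 49.4 and the control score 65.7, the highest of the control list, and the nearest start was 503284 bp away. A pair on chromosome 17, at 19063668 and 19112022, scored 39.2 and 38.9 in the radioresistant library and 28.1 and 10.2 in the control. At chr4 190179545, in DUX4, the repeat-encoded gene of the D4Z4 array near the chromosome end, the scores were 37.8 and 20.3. Further high control scores lay at chr1 125180212 (26.5), chr18 108268 in LOC112268408 (25.6) and chr17 43251657 (20.8).

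Unplaced or unlocalized sequences, contigs without a position on a chromosome and here called unplaced, held 52 shared summits, 3.52% of the set, against 0.658% of the radioresistant-only summits. Of the 127 radioresistant summits on such sequences, 40.9% were shared. KI270733v1 carried 12 and GL000220v1 carried 9, with radioresistant scores up to 31.0 and 36.3. Both contigs are known to hold ribosomal DNA. The densest window of 1 Mb on a placed chromosome, chr21 from 8000001 to 9000000, held 13 shared summits and 17 control summits, and the annotated 45S ribosomal RNA genes lie there. RNA45SN1 and RNA45SN3, precursors of ribosomal RNA, had 2 shared summits each and RNA45SN2 had 1. The next window was chr1 from 143000001 to 144000000, with 12 shared summits and 12 control summits. Among 954 occupied windows, 659 held 1 shared summit and 12 held 5 or more. The 12 included 2 neighbouring windows, chr1 from 123000001 to 124000000 and from 124000001 to 125000000, with 6 shared summits each. Those summits all lay between genes, more than 1 Mb from the nearest start in the table, that of SRGAP2-AS1. Whether they lie in repeated sequence was not tested.

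By location, 482 shared summits (32.7%) lay within 1000 bp of an annotated gene start, here called promoter summits. Another 565 (38.3%) lay inside a gene, 374 (25.3%) between genes and 55 (3.73%) on mitochondrial or unplaced sequence. The radioresistant-only summits were at 32.1%, 41.9%, 25.3% and 0.702%. The control-only summits were at 26.3%, 44.4%, 27.9% and 1.43%. So promoters took about the same part of shared and radioresistant-only summits, and less of control-only summits. Counted over chromosomes with starts in the table, which leave out chromosome 8, the promoter shares were 35.3% (exact 95% interval 32.7 to 37.9%) for shared, 33.7% (32.8 to 34.6%) for radioresistant-only and 27.8% (24.9 to 30.8%) for control-only summits. The intervals of the first and the last do not overlap, and those of the first and second do.

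**Figure D3:**
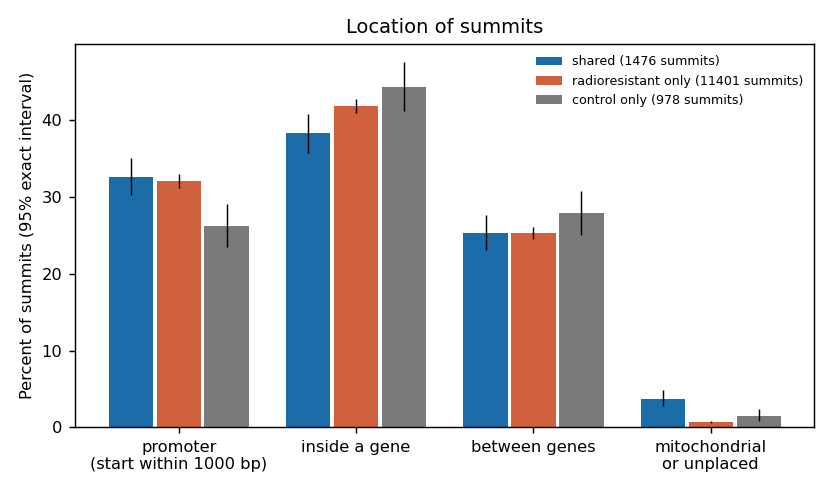
Percent of summits (y, bars from 0 with exact 95% interval) in each location class for shared, radioresistant-only and control-only summits. Promoter shares are 32.7%, 32.1% and 26.3%, and mitochondrial or unplaced sequence takes 3.73%, 0.702% and 1.43%.

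The promoter share did not rise with the score. Among shared summits it was 28.2% for radioresistant scores under 5, 38.2% for 5 to 10, 30.6% for 10 to 20 and 17.6% from 20. In that last group mitochondrial or unplaced sequence made up 23.5% (12 of 51 summits). At scores from 10 the promoter share was 28.6% in shared summits (23.8 to 33.8%) and 40.1% in radioresistant-only summits (34.9 to 45.6%). At 5 to 10 it was 38.2% and 38.0%.

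Around gene starts, shared summits gathered just upstream. Their median position was −46 bp (quartiles −152 and 62 bp), compared with −28 bp in radioresistant-only and −31 bp in control-only summits. The 200 bp before a start held 43.4% of shared promoter summits, 36.2% of radioresistant-only and 35.0% of control-only ones. Of the 482, 435 were near a protein-coding start and 47 only near a non-coding RNA start. At 154 of them (32.0%) starts of at least 2 genes lay on opposite strands, against 27.6% of radioresistant-only promoter summits.

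**Figure D4:**
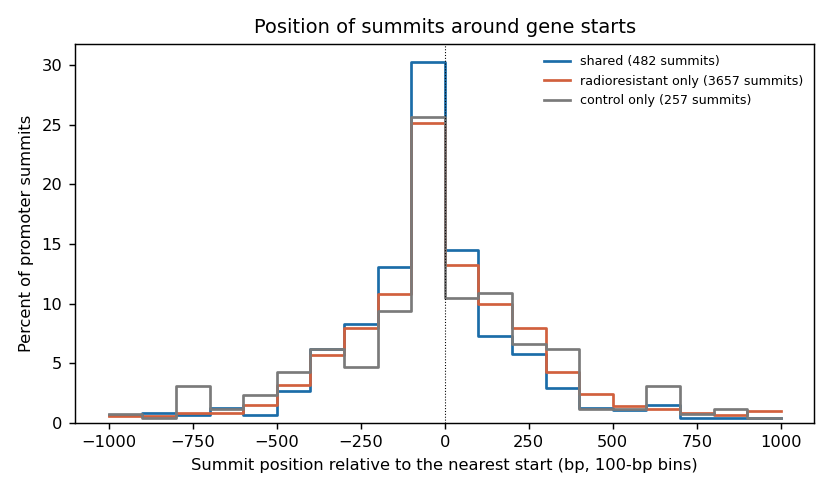
Percent of promoter summits (y) in 100-bp bins by position relative to the nearest gene start (x, bp; negative is upstream), for 482 shared, 3657 radioresistant-only and 257 control-only summits. All 3 sets peak in the bin just before the start, and shared summits have 43.4% within 200 bp upstream.

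Leading promoter summits belonged to genes of varied function. C12orf57, needed for brain development, had 22.2 and 4.90 at 398 bp after its start. FABP7, the brain fatty acid binding protein of radial glia, had 19.6 and 4.87 at −171 bp. CREB3, a membrane-bound transcription factor, had 19.5 and 5.14, and SNX14, a lipid-linked sorting nexin, had 19.5 and 3.98. Many of the highest were near starts of uncharacterised non-coding RNA genes, such as LOC105370449 (32.5 and 19.6) and LOC124904989 (29.3 and 5.92).

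Short RNA genes took a larger part of shared than of radioresistant-only summits. These classes were chosen after their values were seen. A summit was counted when it lay in the gene or within 100 bp of it. Transfer RNA genes had 26 shared summits, 1.76% of the set (exact 95% interval 1.15 to 2.57%), against 0.289% (0.199 to 0.406%) of radioresistant-only and 0.511% (0.166 to 1.19%) of control-only summits. The contrast with radioresistant-only summits was also present within bands of the radioresistant score, with 2.60% against 0.276% under 5 and 1.70% against 0.357% at 5 to 10. From 10 there were 2 of 329 shared summits and 0 of 339 radioresistant-only ones, which allows up to 1.08%. For mitochondrial or unplaced sequence the values were 2.40% against 0.539% under 5 and 9.12% against 3.54% from 10.

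Of 443 annotated nuclear transfer RNA genes, 25 had a shared summit (5.64%), and 13.1% had any radioresistant summit. They read codons of many amino acids, with 7 alanine genes, 4 of 26 arginine genes, and 2 each for lysine and leucine. Chromosome 6, where transfer RNA genes are clustered, had 8 of its 155. The scores were moderate, from 2.42 to 15.8 (median 6.17) in the radioresistant library and 2.45 to 9.92 (median 3.996) in the control. TRL-CAG2-2, a leucine gene at chr16 57300480 to 57300562, had 15.8 and 8.82. TRY-GTA2-1, a tyrosine gene on chromosome 2, had 12.6 and 9.92. TRX-CAT1-1, an initiator methionine gene on chromosome 1, had 6.97 and 6.46.

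Other genes of RNA polymerase III were among them. VTRNA1-2, a vault RNA on chromosome 5, had the highest score of the short RNA genes, 29.4 in the radioresistant and 11.0 in the control library, with the summits 36 bp apart. RN7SL1, the RNA of the signal recognition particle, had 13.3 and 7.23, and its second copy RN7SL2 had 10.3 and 5.73. RPPH1, the RNA of RNase P, had 12.7 and 5.54. RN7SK, the RNA that holds the elongation factor P-TEFb inactive, had 2.80 and 5.07 and so was one of the minority with the higher score in the control library. Ribosomal RNA genes, which polymerase I and the mitochondrial polymerase transcribe, had 8 shared summits (0.542%) and 6 radioresistant-only ones (0.0526%). No shared summit lay at a microRNA gene, which allows a share of up to 0.203%. Among radioresistant-only summits 13 did (0.114%), a share within that limit. Many of these genes have near-identical copies, and which copy a read came from cannot be told from the summit lists.

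Base composition was measured in 114 shared promoter summits whose 201-base window fell inside a RefSeq promoter sequence. These windows were centred on the summit, which limited them to summits shortly upstream of a start. The window of all promoters had a fixed place ending at the start, so the positions compared here and for the motifs differ. Their median GC was 63.2% (quartiles 59.2 and 68.0%), next to 64.7% in 637 radioresistant-only windows and 58.7% in the same-length window of 35116 promoters. The ratio of observed to expected CpG dinucleotides had a median of 0.806, against 0.818 in radioresistant-only windows and 0.574 in all promoters. Shared and radioresistant-only promoter summits were thus alike in composition and richer in CpG than promoters at large.

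Short motifs were searched on both strands of each window, with N for any base, and no motif holds another. The SP1 motif GGGCGG was in 58.8% of the 114 shared windows, 60.0% of radioresistant-only windows and 40.2% of all promoters. The NF-Y motif, whose letters are CCAAT, was in 57 of the 114 shared windows, in 44.4% of radioresistant-only windows and in 28.1% of all promoters. For the ETS motif, spelled CCGGAAGT, the shares were 8.77%, 9.26% and 3.20%. These are the classical motifs of CpG-rich promoters, and both sets of summits held them more often than promoters at large. The NRF1 motif was in 3.51% of shared windows (exact 95% interval 0.964 to 8.74%), 10.0% of radioresistant-only windows and 4.78% of all promoters. Over the whole 300-base promoter sequences of 280 shared summits it was in 9.29%, against 12.5% of radioresistant-only ones. Matches to the CTCF core were in 7.02%, 11.5% and 7.51% of windows, in the same order of sets. Matches to AP-1, as TGANTCA, were in 5.26%, 3.92% and 5.54%. The element TATAAA of strongly regulated promoters was in 3.51%, 2.51% and 8.63%. The E-box, the palindrome CACGTG, was in 6.14%, 9.42% and 5.52%. The ISRE motif was found in 1 of 114 shared windows (exact 95% interval 0.0222 to 4.79%). It was in 1.73% of radioresistant-only windows and 2.42% of all promoters. The YY1 motif was found in 1 shared window as well, against 2.83% of radioresistant-only windows and 1.16% of all promoters. Over whole promoter sequences it was in 24 of 280 (8.57%), against 6.53% of radioresistant-only ones and 3.19% of all promoters. In windows of 101 bases AP-1 matches were in 0.957% of shared and 2.84% of all promoter windows, so both motifs depended on the window. A match is only these letters in this window and does not show that a factor was bound.

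Genes with a shared promoter summit were mostly expressed. Of 649 such genes, 534 were in the RNA table. Their median level was 27.9 TPM in control and 24.0 TPM in radioresistant cells (means of 3 libraries). Genes with a radioresistant-only promoter summit had 28.7 and 25.9 TPM, and genes with no promoter summit 0.818 and 0.732 TPM. Over tested genes only, which leaves out most silent ones, the medians were 30.2 and 27.1 TPM for shared, against 23.3 and 22.2 TPM for genes with no promoter summit, so most of the gap came with untested genes. Within the 534, the score had little relation to the RNA level, with Spearman correlations of 0.0309 for the radioresistant score and 0.111 for the control score, each against the level in the same cells. At 28 of the genes every one of the 6 libraries was under 1 TPM, and 7 were listed at 0 throughout.

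Lower RNA in radioresistant than in control cells was as frequent among these genes as in the table at large, and higher RNA somewhat less frequent. Of 498 that passed the filter, 70 were raised (14.1%) and 135 lowered (27.1%) by limma at an adjusted p of 0.05, and 293 were not called. Of all 13127 genes tested, 16.9% were raised and 27% lowered, 43.9% in either direction. The shares among genes with a radioresistant-only promoter summit were 13.6% and 27.2%, and among tested genes without a promoter summit 18.7% and 27.1%. The median log2 change was −0.12 for the 498 and −0.11 for all genes tested. Median-ratio scaling moved the median of all genes to 0.01. With it, 96 of the members were raised (19.2%) and 122 lowered (24.4%), against 22.6% and 22.5% of all genes. Without radioresistant replicate 3, 40 were raised (8.11%), and the share over all genes fell too, to 11.6%. A summit called in both libraries therefore went with lowered genes at close to the background share. Raised genes were somewhat below it, as they were among genes with a radioresistant-only promoter summit. The difference was not tested.

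The lowered members with the largest changes were FABP7, NEDD9 and EPHA3. FABP7 had 306, 266 and 245 TPM in control cells, and 57.7, 47.8 and 41.9 TPM in radioresistant cells. The groups were far apart, and its log2(TPM + 1) fell by 2.45 (SE 0.14, limma adjusted p 4.04e-07). Its shared summits lay 24 bp apart. The higher score was the radioresistant one, as at 1211 of the 1476 shared summits. NEDD9, a focal adhesion scaffold, was at 160, 171 and 140 TPM in control and 28.9, 32.1 and 28.6 TPM in radioresistant libraries. It fell by 2.35 on the same scale (SE 0.12, limma adjusted p 1.66e-07), without overlap. EPHA3, an ephrin receptor kinase, was at 367, 358 and 278 TPM and then 76.0, 83.9 and 62.7 TPM, a log2 change of −2.16 (SE 0.14, limma adjusted p 1.58e-06). Its summit stood at −16 bp, with low scores of 2.87 and 2.199.

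GSN, which encodes the actin-severing protein gelsolin, fell from 69.0, 72.1 and 71.8 TPM to 28.3, 20.9 and 13.0 TPM. Its summit was among the 265 with the higher score in the control library (6.70, against 2.75 in the radioresistant one). The other lowered genes among the 10 largest changed by −1.54 to −1.40 on the log2 scale. They were TMEM161B-AS1, a non-coding RNA that RefSeq names TMEM161B-DT, DCK, the kinase that starts deoxycytidine salvage, COX18, which inserts a cytochrome oxidase subunit, ADGRV1, ALDH6A1, a valine catabolism enzyme, and CYB5D2, a heme-binding protein. ADGRV1, whose summit sequence is printed above, went from 10.1, 9.63 and 7.17 TPM to 2.76, 2.80 and 2.44 TPM. Its summit scored 18.4 in the radioresistant and 5.44 in the control library, the direction of most shared summits. Whether the counting used strand is not given in the sources used here, so reads of TMEM161B-AS1 and an overlapping gene cannot be told apart.

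Changes of at least 2-fold without overlap between groups were met by 8 raised members (1.61% of the 498) and 28 lowered ones (5.62%). Over all genes tested the same rule took 4.24% as raised and 5.6% as lowered. PNP, the purine nucleoside phosphorylase, was at 28.4, 23.4 and 22.3 TPM in control and 58.8, 73.1 and 79.8 TPM in radioresistant libraries. Its log2 change was 1.47 (SE 0.15, limma adjusted p 2.69e-05), with summit scores of 4.21 and 2.53. POLDIP3, an mRNA export and translation factor, went from 56.5, 61.7 and 74.5 TPM to 158, 146 and 160 TPM, a log2 change of 1.26 (SE 0.12, limma adjusted p 2.29e-05). GTPBP1, a GTP-binding protein on the same chromosome 22, went from 22.5, 24.6 and 24.5 TPM to 60.1, 59.6 and 54.5 TPM. SLC25A28, a mitochondrial iron carrier, went from 21.0, 20.4 and 25.01 TPM to 49.2, 41.8 and 47.1 TPM.

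TSPO, a cholesterol-binding protein of the outer mitochondrial membrane, had the largest rise but uneven controls, at 118, 169 and 353 TPM against 625, 506 and 557 TPM. Its log2 change was 1.54 (SE 0.39, limma adjusted p 0.0197), and the call was lost when control replicate 2 or any 1 of the radioresistant libraries was left out, with log2 changes of 1.45 to 1.62. Without control replicate 1 the change was 1.196 and without control replicate 3 it was 1.98, both called. The others were GPR63, an orphan receptor, ITGA1, a collagen-binding integrin subunit, and PA2G4, a growth-regulating RNA-binding protein, with log2 changes of 1.18, 1.03 and 1.01.

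**Figure D5:**
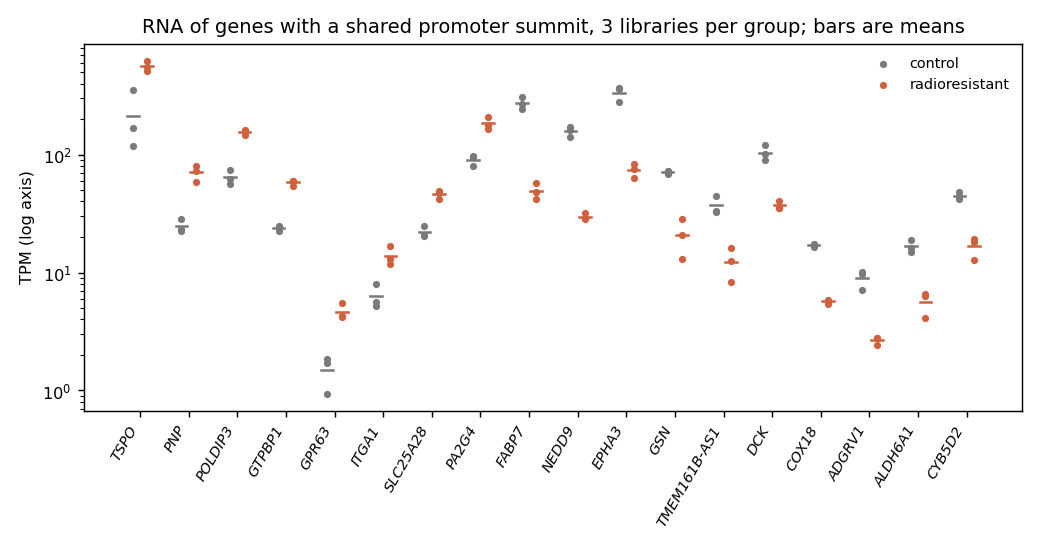
TPM (y, log axis) of the 18 genes with a shared promoter summit that changed at least 2-fold without overlap (all 8 raised and the 10 largest falls), 3 points per group with the mean as a bar. In each gene the control and the radioresistant points are separate, as in FABP7 with 245 to 306 against 41.9 to 57.7 TPM.

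In the hairpin cells, which are radioresistant cells too, these genes were measured in a second table that was scaled separately, so the levels are set side by side without a test. FABP7 stood at 48.0 ± 2.07 TPM with shNC and 65.9 ± 2.85 TPM with shIFI16 (SD, n = 3), near the 49.1 ± 7.97 TPM of the radioresistant libraries. NEDD9 was at 16.9 ± 1.37 and 17.9 ± 2.35 TPM. POLDIP3 was at 70.6 ± 4.41 and 75.5 ± 2.81 TPM, closer to the 64.2 ± 9.24 TPM of the control cells than to the 155 ± 7.80 TPM of the radioresistant ones. GTPBP1 showed the same order, with 20.7 ± 2.15 and 22.7 ± 3.20 TPM. Of the other raised genes, TSPO, GPR63 and SLC25A28 were below the radioresistant level. TSPO was at 287 ± 8.15 and 208 ± 19.7 TPM against 563 ± 59.8, and GPR63 at 0.234 ± 0.0364 and 0.832 ± 0.0340 TPM against 4.62 ± 0.730. SLC25A28 was at 33.7 ± 0.506 and 28.6 ± 0.347 TPM against 46.0 ± 3.84. PNP, PA2G4 and ITGA1 were near or above the radioresistant level. PNP was at 83.6 ± 3.49 and 72.3 ± 1.88 TPM against 70.6 ± 10.8, PA2G4 at 203 ± 8.74 and 260 ± 6.41 TPM against 184 ± 23.3, and ITGA1 at 13.5 ± 0.946 and 12.9 ± 1.19 TPM against 13.9 ± 2.59. The lowered TMEM161B-AS1, at 26.2 ± 1.17 and 33.0 ± 1.04 TPM, lay nearer to the 37.0 ± 6.76 TPM of control cells than to the 12.3 ± 3.96 TPM of radioresistant ones.

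Genes of known pathways are given by list, for members with a start in the table. Of 40 interferon-stimulated genes 1 (2.50%) had a shared promoter summit, STAT2, a transcription factor of the type I interferon response. STAT2 was at 40.9, 39.1 and 36.5 TPM in control and 75.6, 72.4 and 56.7 TPM in radioresistant libraries, a log2 change of 0.79 (SE 0.13, limma adjusted p 0.000872). Its summits lay 244 bp apart, near the limit of the rule, with scores of 4.48 and 4.78. Of the interferon list 6 genes had a radioresistant-only promoter summit and 33 had none, as judged from the starts in the table. A shared promoter summit was present at 3.10% of all genes with a start in the table and at 4.78% of those tested. A radioresistant-only one was present at 3788 of all 17219 genes with a start in the table and at 3483 of the 10422 tested.

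IFI16, the DNA sensor that the study knocked down, had no shared summit near it. The nearest was 870352 bp away. A radioresistant-only summit with a score of 6.80 lay at chr1 158999953, 23 bp outside the gene span of 158999976 to 159055151. That summit was not within 1000 bp of an IFI16 start in the table, so IFI16 counts above among the genes with none. IFI16 was at 70.3, 71.1 and 49.6 TPM in control and 250.8, 309 and 243 TPM in radioresistant libraries. With the hairpins it was at 125 to 140 TPM for shNC and 6.71 to 7.90 TPM for shIFI16. HMOX1, heme oxygenase 1, had its nearest shared summit 30143 bp away, and its start is not in the table. GFAP, the astrocyte filament gene, had its nearest 177706 bp away.

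Antioxidant, iron and heme genes included several. Among 17 NRF2 targets, 3 had a shared promoter summit: NQO1, a quinone reductase, PGD of the pentose phosphate pathway, and EPHX1, an epoxide hydrolase. NQO1 was raised, from 538, 486 and 452 TPM to 659, 718 and 683 TPM (log2 change 0.48, SE 0.11, limma adjusted p 0.00417). PGD at 243 to 260 and 269 to 293 TPM and EPHX1 at 339 to 399 and 318 to 395 TPM were not called. In the iron and heme list 3 of 25 had one, namely the heme synthesis enzymes PPOX and CPOX, neither called, and LPCAT3, which loads polyunsaturated fatty acids into phospholipids. LPCAT3 was lowered from 34.7, 38.1 and 33.2 TPM to 20.6, 21.2 and 15.6 TPM (log2 change −0.87, limma adjusted p 0.000756). TP53I3, a quinone oxidoreductase and the 1 of 26 p53 targets with a shared promoter summit, was lowered by limma too, with a log2 change of −0.74 (adjusted p 0.00225).

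Housekeeping complexes contributed a few members each. Of 26 proteasome genes 3 had a shared promoter summit, and PSMA5 (log2 change 0.54, limma adjusted p 0.00216) and PSMC4 (0.37, adjusted p 0.0115) were raised, while PSMA1 was not called at 321 to 386 and 355 to 408 TPM. Of 60 ribosomal protein genes 3 had one. RPS19 was raised (log2 change 0.40, limma adjusted p 0.0152), a call that was lost with quantile normalization (log2 change 0.29) and without control replicate 1, control replicate 2 or radioresistant replicate 3. RPSA and RPS12 were not called, but passed without control replicate 3, at −0.54 and 0.53. Of 35 splicing genes 3 had one, HNRNPA2B1, SNRPE and U2AF2, and of 28 DNA break repair genes 2 had one, the checkpoint kinase CHEK1 and the nuclease EXO1. None of these 5 was called, though HNRNPA2B1 and EXO1 passed as raised with median-ratio scaling (log2 changes 0.39 and 0.37) and U2AF2 (0.63) and CHEK1 (−0.32) passed without control replicate 3. CANX, the lectin chaperone calnexin, was the 1 of 16 antigen presentation genes, at 665 to 920 TPM in control and 639 to 786 TPM in radioresistant libraries, and was called (−0.35) only without control replicate 3.

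No shared promoter summit was found at 49 replication histone genes, 33 cell cycle genes, 19 AP-1 and immediate early genes, 27 chromatin architecture genes, 19 mesenchymal or 12 proneural genes. With 3.10% of all genes having one, few are to be found in lists of this size, and these counts do not set the lists apart. Of the cell cycle genes 20 had a radioresistant-only promoter summit. Of 8 astrocyte genes with a start in the table, FABP7 alone had a shared promoter summit. Glial markers were present in control cells and lower in radioresistant ones, with all 8 tested genes of the astrocyte list lowered by limma (median log2 change −1.21). S100B, a glial calcium-binding protein, was at 5.92 to 10.5 TPM in control and 0.0704 to 0.611 TPM in radioresistant libraries. VIM, the filament vimentin, which is not specific to glia, was at 8757 to 8878 TPM in control and 5498 to 5921 TPM in radioresistant libraries. GFAP was at 3882 to 4079 TPM in control but at 56.2 to 102 TPM in radioresistant libraries. The summed level of 11 immune marker genes was 15.8 to 21.8 TPM in control and 20.3 to 24.2 TPM in radioresistant libraries. Most of it was CD68, a lysosomal protein of macrophages also found in other cells, at 14.4 to 22.1 TPM over the 6 libraries. The defining markers CD3E and AIF1 were listed at 0 in all 6.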

How the data were processed

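ATAC-seq and RNA-seq libraries of U251MG cells were analysed from the deposited tables. Per the submitters' processing notes the build is hg38 and the tools are Trim Galore 0.6.6, TopHat, Cufflinks 2.2.1, featureCounts, Bowtie2 2.2.5, SAMtools 1.10 and MACS2 2.1.4; how the ends of ATAC-seq reads were shifted, how duplicates were treated and which reads were kept is not given in the sources used here. The deposited summit lists give 1 base per summit, called per library, and a −log10 q-value made by the authors' peak caller, with a lowest value of 1.30, which corresponds to q = 0.05. The deposited RNA tables, although named as counts, hold TPM values made by the authors, so the depth of each library is unknown. The TPM columns carry codes, and their groups were inferred from the codes: N and R as in the names of the control and radioresistant ATAC-seq lists, and a further letter for shNC or shIFI16.

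Summit positions were taken as 1-based. Starts and sequences came from RefSeq (GRCh38.p14): 35116 starts of 27305 genes, none on chromosome 8, each with 250 bases before and 50 after the start. Of 24461 named RNA entries, 17219 matched a gene with a start, and 10422 of 13127 tested genes did (79.4%). No genome was used, so exons, introns and UTRs are not stated and sequence was measured only inside these promoters. RNA was tested with limma 3.58.1 (R 4.3.3; trend and robust options) on log2(TPM + 1), which understates changes of low genes, for genes with at least 1 TPM in 3 of 6 control and radioresistant libraries, with Benjamini-Hochberg adjustment over all genes tested. Shares have exact 95% binomial intervals (SciPy 1.17.1), and the limit for a count of 0 is 3 counts of the total unless an exact bound is given. The RNA fit was tested on simulated data.

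Named genes and summits were the 10 highest scores in each list, summits at the distance limit, the 10 largest rises and falls of at least 2-fold (mean of at least 2 TPM, no overlap between groups), up to 6 members per gene list, IFI16 and HMOX1. GFAP, other summits at promoters, same-base pairs and short RNA genes were chosen after their values were seen. The members and lists were chosen with earlier results of these data known. Distance limits, score minimums, start-site distances, window sizes, scaling, pseudocount, filter, the replicate block and leaving out libraries were the alternatives.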

Additional observations from a re-analysis of the deposited data

How the results depend on the processing

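The ATAC-seq results rest on 1 library per condition of unknown depth, so no difference between the libraries could be tested. The number of shared summits followed the distance and the score required: 600 within 50 bp, 886 within 100 bp, 327 with a score of at least 5 in both libraries and 42 with at least 10 in both. It was 1816 within 500 bp, 1876 within 1000 bp and 1421 without mitochondrial and unplaced sequence. The share at promoters, 35.3% over chromosomes with starts, was 32.6% with starts within 500 bp, 31.8% with protein-coding starts only and 17.1% with scores of at least 10 in both libraries. The share of shared windows with at least 1 of the 10 motifs was 91.2% in 201 bases and 67.9% in 101 bases, a shorter window. That share is not given here for the other sets, so it does not set shared summits apart. In 201 bases of all promoters, SP1 alone was in 40.2% and NF-Y alone in 28.1%. Median GC was 64.4% in the shorter window and 62.8% over whole promoter sequences, an alternative added after seeing the data, as were other distances for the RNA level (24.5 to 24.8 TPM). GC with 250 bp on each side was not run, because the promoter sequences hold 300 bases.

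The raised genes with a shared promoter summit numbered 70 and ranged from 40 to 87 when 1 library was left out, and the lowered ones numbered 135 and ranged from 99 to 196. The lowest raised count was without radioresistant replicate 3, and the highest counts were without control replicate 3. In that last fit 17.6% of the members were raised, against 21.4% of all genes, and 39.6% were lowered, against 34.3%. With the replicate number as a block they were 66 and 135. Same-numbered libraries had correlations of −0.38, 0.24 and 0.08 between their deviations from the group means, so the numbers do not pair the libraries. Median-ratio scaling gave 96 raised and 122 lowered, quantile normalization 85 and 129, so that 44.0% and 39.7% of the called genes were raised in place of 34.1%. Among 39 named genes, 412 of 429 refits kept the direction and the call. The direction turned only in EPHX1, which was not called, with 0.041 under median-ratio scaling and a range of −0.15 (without radioresistant replicate 1) to 0.0023 (without radioresistant replicate 3) when 1 library was left out. The cause of these shifts was not tested.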
